A study of Mus musculus with 6 samples.

Results

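Integrin subunit genes of macrophages, 10 in number, were followed in RAW264.7 cells, a mouse macrophage-like cell line, with and without an Fbxw11 vector. They were taken by gene name, 10 of the 56748 genes in the deposited table, and comprise 7 alpha chains (Itgal, Itgam, Itgax, Itgav, Itga4, Itga5 and Itga6) and 3 beta chains (Itgb1, Itgb2 and Itgb5). Both groups were infected with lentiviruses and both were sorted before RNA was extracted. The 3 control libraries carried a control vector and are named for GFP, and the 3 Fbxw11 libraries carried pMSCV-Fbxw11-pGk-GFP, in which the name places GFP behind a pGk promoter. The libraries of a group share a single cell line, and nothing in the labels ties them to separate transductions or cultures, so each p-value speaks to the variation among these libraries alone, and that variation may be technical. The series title names macrophage polarization as the subject, and the labels state no stimulus, age or sampling time.

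Integrins are cell surface receptors made of an alpha and a beta chain, and the pair decides what a cell binds. Itgb2 is the shared beta chain of the leukocyte integrins, and pairs with Itgal (LFA-1, a receptor for ICAM proteins), Itgam (complement receptor 3, also called Mac-1, which takes up particles coated with C3 fragments) and Itgax (complement receptor 4, widely used as the dendritic cell marker CD11c). Itgb1 pairs with Itga4, Itga5 and Itga6, receptors for VCAM and fibronectin, for fibronectin and for laminin, while Itgav joins Itgb1, Itgb3, Itgb5 or other beta chains to bind ligands with an RGD motif such as vitronectin and osteopontin. The measurements below are of RNA, and pairs of chains at the cell surface were not measured.

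The 3 alpha chain RNAs among the 10 genes that pair with Itgb2 rose in the Fbxw11 libraries and Itgav fell. Itgam rose 1.41-fold, Itgal 1.26-fold and Itgax 1.81-fold in mean FPKM, while Itgav fell 1.27-fold. Itgb2, the shared partner of the chains that rose, stood at 87.3 ± 3.43 and 81.9 ± 4.01 FPKM (SD, n = 3, control before Fbxw11), and did not pass the test. FPKM is the number of fragments scaled by the authors to gene length and library size, so levels can be set side by side between genes. Of the 10 genes, 9 averaged 1 FPKM or more across the 6 libraries and were tested, and Itga6 did not reach that mean. "Rose" and "fell" mean higher or lower in the Fbxw11 libraries with an adjusted p below 0.05 in limma on log2(FPKM + 1), Benjamini-Hochberg adjusted over all 10898 genes tested. Of the 9 tested genes 3 rose, where 4.60% of all tested genes did, and 1 fell, where 4.64% did. In either direction 4 of 9 passed, beside 9.24% of all tested genes. The same 4 were those whose libraries did not overlap between the groups, beside 31.1% of all tested genes. Their median log2 fold change was -0.02, and that of all tested genes was 0.0029. One of the rises, Itgax, stood at 0.958 FPKM on average in the control libraries, so it passed the filter on low values only through the Fbxw11 libraries.

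The libraries held between 16191971 and 18951653 reads recovered from the FPKM values, and Fbxw11 itself ranged from 35.8 to 36.5 FPKM in the control and from 268 to 274 FPKM in the Fbxw11 libraries, which checks the labels. Reads of the vector and of the endogenous gene cannot be told apart there. A principal component with 23.7% of the variance set replicate 3 of each group apart from the other 4 libraries. Over all genes, 501 rose and 506 fell. On the TPM scale 348 rose and 712 fell, with plain read sums 381 and 691, and with voom on recovered reads 520 and 1039. Of 9 macrophage markers all passed the filter, with Cd68 at 551 ± 21.7 and Csf1r at 154 ± 4.32 FPKM in control libraries. Of the 9, 2 rose, Adgre1 and Lyz2, where 4.60% of all tested genes did. The 3 markers with a negative difference did not pass. They were Fcgr3, at 5.61 ± 0.710 and 3.74 ± 0.902 FPKM with groups that did not overlap (log2 fold change -0.49, limma adjusted p = 0.0927), Aif1 (-0.16, 0.359) and Csf1r (-0.07, 0.290). These markers are named after their values were seen. Of 29 markers of 8 other cell types 24 stayed below the filter. Of the 5 tested, 0 passed limma's test, beside 9.24% of all tested genes (0 at an unadjusted p under 0.05, and 0 by voom). The summed level of the 29 was 10.3 to 11.2 FPKM in the controls and 10.01 to 12.7 FPKM in Fbxw11 libraries. Of the 29, 10 were listed at 0 in each library, among them 4 of 5 neutrophil genes (Ly6g, Elane, Mpo and S100a9). The fifth, S100a8, was the most abundant of the 29, at 3.34 ± 0.759 and 4.49 ± 1.18 FPKM on 33 to 64 reads (log2 fold change 0.33, limma adjusted p = 0.324). The part of these markers in the integrin results was not tested. In bulk RNA, fewer cells that express a gene and less RNA per cell cannot be told apart.

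Promoter sequence is shown for the adjoining genes Itgam and Itgax, which rose, and for Itgav, which fell, as the stretch each gene's transcription starts from. The 3 sequences are the 250 bases before the RefSeq start in GRCm38.p6, on the plus strand, at chr7:128062390-128062639 for Itgam, chr7:128129300-128129549 for Itgax and chr2:83724147-83724396 for Itgav. RefSeq promoters were at hand for 7 of the 10 genes. Capitals mark matches on either strand to GAGGAA, the core bound by the myeloid factor PU.1, to GGGCGG, the core bound by Sp1, or to TGANTCA, an AP-1 site.
Itgam: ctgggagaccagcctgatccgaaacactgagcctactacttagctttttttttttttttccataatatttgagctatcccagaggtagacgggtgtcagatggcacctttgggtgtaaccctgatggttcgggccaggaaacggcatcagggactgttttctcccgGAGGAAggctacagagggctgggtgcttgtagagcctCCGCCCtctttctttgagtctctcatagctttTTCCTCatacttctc
Itgax: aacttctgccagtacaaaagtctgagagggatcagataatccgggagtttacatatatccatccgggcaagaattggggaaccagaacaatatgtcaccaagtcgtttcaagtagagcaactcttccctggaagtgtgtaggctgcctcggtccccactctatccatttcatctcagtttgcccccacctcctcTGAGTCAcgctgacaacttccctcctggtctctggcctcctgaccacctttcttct
Itgav: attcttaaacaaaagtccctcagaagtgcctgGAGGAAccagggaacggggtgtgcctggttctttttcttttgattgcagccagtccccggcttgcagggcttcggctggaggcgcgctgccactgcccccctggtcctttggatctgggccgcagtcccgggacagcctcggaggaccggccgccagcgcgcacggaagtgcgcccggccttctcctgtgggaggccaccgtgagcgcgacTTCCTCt
Itgam held 2 matches to the PU.1 core, whose first printed bases lie 84 and 15 bases before the start, and 1 to the Sp1 core, on the minus strand, 47 bases before it. Itgav held 2 matches to the PU.1 core, at 218 and 7 bases before its start. Itgax held 1 match to the AP-1 motif, 56 bases before the start, and none to the PU.1 core. No matches of different motifs overlapped. These letters are common: of 32817 RefSeq promoter windows of the same length, 23.3% held the PU.1 core, 32.7% the Sp1 core and 6.75% the AP-1 motif. A PU.1 core was thus present in 1 gene that rose and in the gene that fell. Of the genes that did not pass, Itgb1 and Itga5 held it and Itga4 and Itgb5 did not. No promoter was at hand for Itgal, which rose. A match is a description of the sequence, not of binding. The GC content was 49.6% in Itgam, 50% in Itgax and 64.4% in Itgav, against a median of 52.4% over all windows. Genes of the 10 that did not pass stood at 55.6% (Itga5), 64% (Itga4), 65.2% (Itgb5) and 68% (Itgb1), so the value of Itgav was not particular to it.

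Itgam, the alpha chain of complement receptor 3, was the most abundant alpha chain that pairs with Itgb2. It stood at 20.7, 19.6 and 19.3 FPKM in control libraries 1 to 3 and at 29.4, 27.3 and 27.2 FPKM in Fbxw11 libraries 1 to 3. The lowest Fbxw11 library lay well above the highest control library. The log2 fold change was 0.47 (SE 0.046, 95% interval 0.36 to 0.58, limma adjusted p = 0.00274), from 1642 to 2450 reads per library. It kept this call under each of the 16 alternatives of processing, with log2 fold changes of 0.44 to 0.50. In the deposited table Itgam (ENSMUSG00000030786) lies on chromosome 7 at 127661812 to 127717663. These coordinates, like those of the other genes from the table, do not follow the mm10 build that the labels name, and their build is not stated.

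Itgal, the alpha chain of LFA-1, which mediates firm adhesion of leukocytes, was measured at 6.45, 6.76 and 6.93 FPKM in control libraries and at 8.95, 8.49 and 7.92 FPKM in Fbxw11 libraries. The groups did not overlap, and the third Fbxw11 library was the nearest to the controls. The log2 fold change was 0.29 (SE 0.053, 95% interval 0.16 to 0.42, limma adjusted p = 0.0211), from 697 to 996 reads. This call rested on each of 4 libraries. When control library 1 was left out the adjusted p was 0.0806, and it was 0.0790 for control library 2, 0.0624 for Fbxw11 library 1 and 0.0763 for Fbxw11 library 2, with log2 fold changes of 0.26 to 0.30. It was also lost, at 0.0569, with no filter on low values. Itgal (ENSMUSG00000030830) is placed on chromosome 7 at 126895432 to 126934310.

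Itgax, the alpha chain of complement receptor 4, was scarce. It stood at 0.861, 1.12 and 0.896 FPKM in control libraries and at 1.66, 1.63 and 1.92 FPKM in Fbxw11 libraries. The groups did not overlap, on 68 to 157 reads per library. Its log2 fold change was 0.48 (SE 0.086, 95% interval 0.28 to 0.69, limma adjusted p = 0.0198), a scale that understates the change of so low a gene: with a pseudocount of 0.1 it was 0.80, and with voom on recovered reads 0.81. The call was lost without control library 1 (adjusted p = 0.0738), control library 3 (0.0567), Fbxw11 library 1 (0.0601), Fbxw11 library 2 (0.0561) or Fbxw11 library 3 (0.0560), without replicate 3 of both groups (0.10) and with no filter on low values (0.0718). The direction held in each of these, and Itgax could not be called where a mean of 5 FPKM was asked for. Itgax (ENSMUSG00000030789) is placed on chromosome 7 at 127728719 to 127749829.

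**Figure D1:**
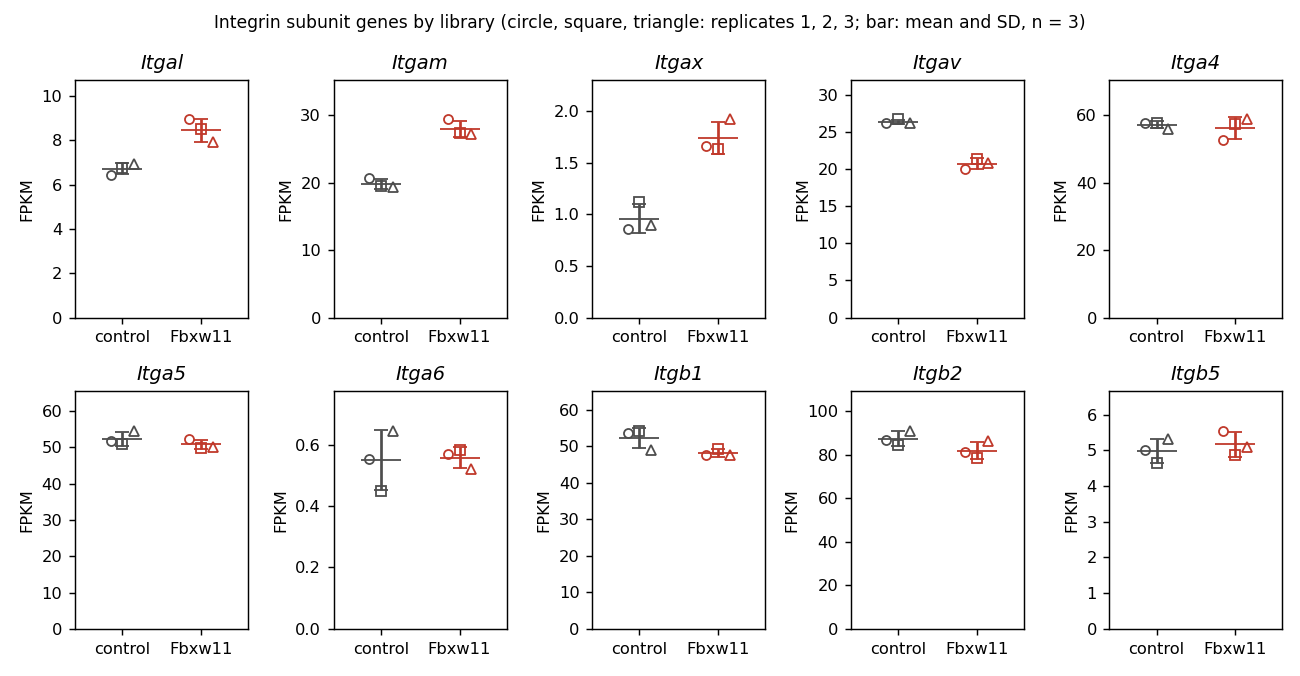
FPKM of each of the 10 integrin subunit genes (vertical axes, each from 0) in 3 control (grey) and 3 Fbxw11 (red) libraries; symbols are replicates, horizontal bars are means and error bars SD. Itgal, Itgam and Itgax lie higher in each Fbxw11 library than in any control library, Itgav lies lower, and the groups of the other 6 genes overlap.

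Itgav, the alpha chain of the vitronectin receptors, was measured at 26.3, 26.7 and 26.1 FPKM in control libraries and at 20.002, 21.4 and 20.8 FPKM in Fbxw11 libraries. The control libraries lay close together and all above the Fbxw11 libraries. The log2 fold change was -0.33 (SE 0.036, 95% interval -0.42 to -0.25, limma adjusted p = 0.00367), from 3500 to 5512 reads, and the call held under each of the 16 alternatives, with values of -0.39 to -0.31. Itgav (ENSMUSG00000027087) lies on chromosome 2 at 83554741 to 83637260 in the table's coordinates. Its beta partner Itgb5 did not pass. It stood at 4.997, 4.64 and 5.31 FPKM in the controls and at 5.55, 4.86 and 5.09 FPKM in Fbxw11 libraries, and the groups overlapped (log2 fold change 0.04, 95% interval -0.11 to 0.20, limma adjusted p = 0.733). The other classical partner, Itgb3, the beta chain of the osteoclast vitronectin receptor, was outside the 10 genes and is named after its values were seen. It was listed at 0.705 to 0.770 FPKM among control and at 0.437 to 0.608 FPKM among Fbxw11 libraries. It lay under the filter and did not pass where no filter was used (log2 fold change -0.17, limma adjusted p = 0.391).

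Itga4 and Itga5, chains that bind VCAM and fibronectin, were the most abundant alpha chains and did not pass the test. Itga4 stood at 57.8, 57.6 and 55.9 FPKM in the controls and 52.6, 57.4 and 58.7 FPKM in Fbxw11 libraries. The first Fbxw11 library was the lowest of the 6 and the third the highest, so the groups overlapped (log2 fold change -0.02, 95% interval -0.14 to 0.09, limma adjusted p = 0.815). Itga5, the fibronectin receptor chain, stood at 51.8, 50.8 and 54.6 FPKM in the controls and 52.3, 49.9 and 50.1 FPKM in Fbxw11 libraries, again with overlap (log2 fold change -0.04, 95% interval -0.14 to 0.05, limma adjusted p = 0.539). Itga6, the laminin receptor chain, was the scarcest of the 10. It was listed at 0.552, 0.450 and 0.645 FPKM in the controls and 0.571, 0.582 and 0.520 FPKM in Fbxw11 libraries, on 79 to 100 reads, and was not tested beside the others. With no filter on low values its log2 fold change was 0.0098 (95% interval -0.16 to 0.18, limma adjusted p = 0.974).

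Itgb1 and Itgb2, the abundant beta chains among the 10 genes, were slightly lower on average in the Fbxw11 libraries without passing the test. Itgb7, an abundant beta chain outside the 10 genes, was higher on average, also without passing, and is given below. Itgb1, the partner of Itga4, Itga5 and Itga6, stood at 53.6, 54.2 and 49.1 FPKM in the controls and 47.5, 49.3 and 47.7 FPKM in Fbxw11 libraries. The third control library fell within the range of the Fbxw11 libraries (log2 fold change -0.11, 95% interval -0.22 to -0.01, limma adjusted p = 0.187). With voom on recovered reads, which scales by plain read sums, Itgb1 passed as a fall (log2 fold change -0.15, adjusted p = 0.0320). In limma it did not pass with plain read sums (-0.15, adjusted p = 0.0915) or on the TPM scale (-0.16, adjusted p = 0.0753). Itgb2 stood at 86.5, 84.3 and 91.0 FPKM in the controls and 81.1, 78.3 and 86.2 FPKM in Fbxw11 libraries. Its groups overlapped as well, with replicate 3 the highest in each (log2 fold change -0.09, 95% interval -0.21 to 0.02, limma adjusted p = 0.297). The intervals of Itgb1 and Itgb2 exclude a rise of the size of that of Itgal.

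**Figure D2:**
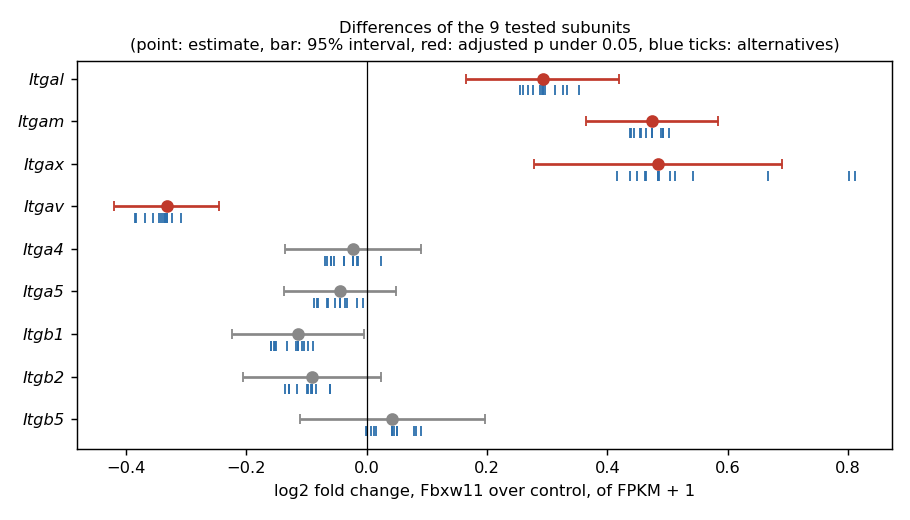
Log2 fold change of FPKM + 1, Fbxw11 over control (horizontal axis), of the 9 tested subunits, with 95% intervals; red marks an adjusted p below 0.05 and blue ticks are the values under the alternatives of processing. Itgal, Itgam and Itgax lie right of 0 and Itgav left of 0 under each alternative, and the ticks of Itgax spread most, from 0.42 to 0.81.

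Levels were ordered per gene length, with the caution that the table's length of a gene sums its annotated sequence and the transcripts in use may be shorter. In control libraries the order of mean FPKM was Itgb2, Itga4, Itga5, Itgb1, Itgav, Itgam, Itgal, Itgb5, Itgax and Itga6. The ranges of neighbours in this order did not overlap, other than those of Itga5 (50.8 to 54.6) and Itgb1 (49.1 to 54.2). In Fbxw11 libraries Itgam and Itgav had changed places and no neighbours overlapped. The ratio of Itgam to Itgav FPKM was 0.788, 0.733 and 0.737 in control and 1.47, 1.28 and 1.31 in Fbxw11 libraries, below 1 in each library of the first group and above 1 in each of the second.

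Within the alpha chain RNA, Itgam took a larger and Itgav a smaller share in each Fbxw11 library than in any control library. The 7 alpha chains summed to 164 ± 0.801 FPKM in the controls and 166 ± 0.942 FPKM in Fbxw11 libraries (SD, n = 3). Itgam took 12.1% ± 0.436 of that sum in control and 16.8% ± 0.833 in Fbxw11 libraries, and Itgav took 16.1% ± 0.253 and 12.5% ± 0.368. The shares of the most abundant chains stayed close, at 34.8% ± 0.708 and 33.8% ± 1.76 for Itga4 and at 32.0% ± 1.07 and 30.5% ± 0.953 for Itga5. Among Itgal, Itgam and Itgax alone, Itgam held 72.1% ± 1.55 in control and 73.3% ± 0.274 in Fbxw11 libraries, with overlap between the groups. Itgal held 24.4% ± 1.28 and 22.2% ± 0.662, and Itgax 3.48% ± 0.518 and 4.57% ± 0.543, lower and higher in the Fbxw11 libraries with no overlap. Their sum was 27.5 ± 0.452 FPKM in the controls and 38.1 ± 1.597 FPKM with Fbxw11. That sum was 0.324, 0.326 and 0.298 times the FPKM of Itgb2 in control and 0.493, 0.478 and 0.429 times in Fbxw11 libraries. In each library Itgb2 RNA was therefore more abundant per length than its alpha partners together. These shares and ratios are given as descriptions with no test.

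**Figure D3:**
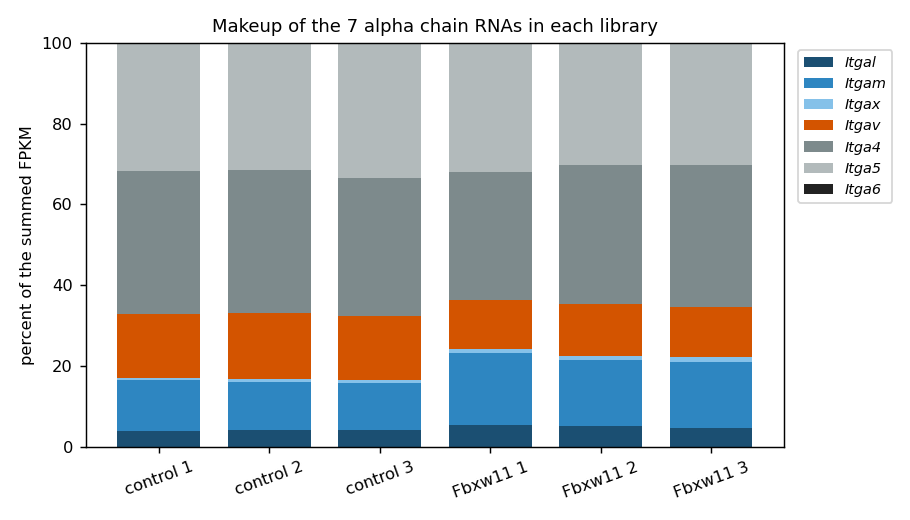
Share of each alpha chain in the summed FPKM of the 7 alpha chains (vertical axis, percent), stacked for each of the 6 libraries. The blue segments (Itgal, Itgam and Itgax) are taller and the orange segment (Itgav) shorter in the Fbxw11 libraries, while the grey segments (Itga4 and Itga5) differ little.

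The 3 genes that rose lie near each other. Itgam and Itgax lie next to each other on chromosome 7, 11.1 kb apart, and Itgal lies 728 kb before Itgam. From the start of Itgal to the end of Itgad (126895432 to 127822988 in the table's coordinates) the table lists 75 genes, of which 24 were tested. Besides the 3 integrin genes, 0 of the other 21 passed limma's adjusted test, beside 9.24% of all tested genes. Of these 21, 4 had an unadjusted p under 0.05, a count given without the share of all tested genes. By voom 1, Bckdk, named after its value was seen, passed as a fall, beside 1559 of all 10898 tested genes. The log2 fold changes of the 21 ran from -0.20 to 0.26 with a median of 0.07, and 17 were above 0. Over all tested genes the median was 0.0029, and 5546 of 10898 were above 0. Itgad, a further partner of Itgb2 that lies just behind Itgax, ranged from 0.607 to 0.654 FPKM among control and from 0.571 to 0.651 FPKM among Fbxw11 libraries. It was under the filter, with overlapping groups.

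**Figure D4:**
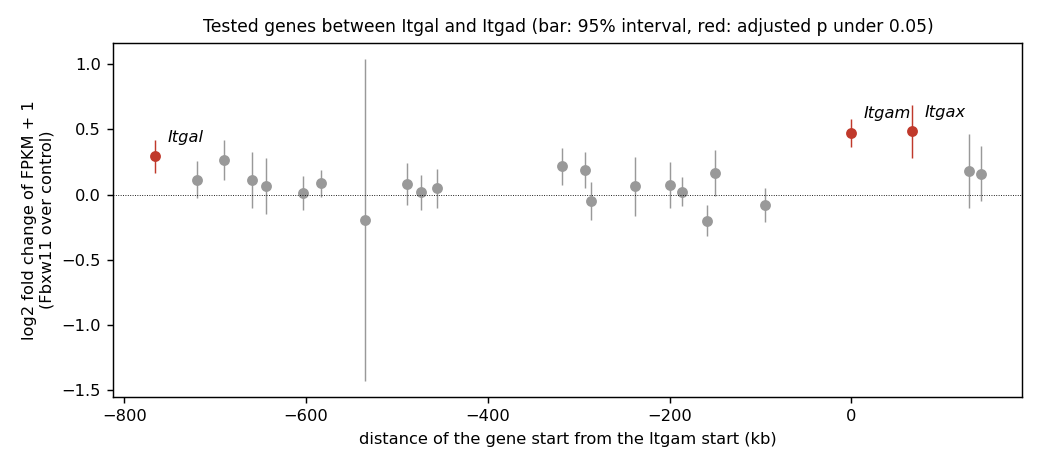
Log2 fold change of FPKM + 1, Fbxw11 over control, with 95% intervals (vertical axis), of the 24 tested genes between Itgal and the end of Itgad, by the distance of the gene start from that of Itgam (horizontal axis, kb). Itgal, Itgam and Itgax, in red, are the genes with an adjusted p below 0.05; the wide interval belongs to a short small RNA gene.

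Of 17 other integrin genes 2 were tested, and 0 passed limma's adjusted test, beside 9.24% of all tested genes. By voom 0 passed, beside 1559 of all 10898 tested genes. The 2 had an unadjusted p under 0.05, a count given without the share of all tested genes. In both the groups did not overlap, beside 31.1% of all tested genes. Itgb7, which pairs with Itga4 in gut-homing lymphocytes, was abundant, at 45.5 ± 2.65 and 50.7 ± 2.30 FPKM in the control and Fbxw11 libraries (log2 fold change 0.16, limma adjusted p = 0.138). Itga7, a laminin receptor chain, stood at 2.22 ± 0.145 and 2.75 ± 0.220 FPKM (0.22, limma adjusted p = 0.111). Of the other 15, 13 stayed below 0.5 FPKM in each library, and the exceptions were Itgb3 and Itgad, given above.

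Genes that carry signals to and from integrin tails were taken as a list. Of 36 activation and adhesion adaptors 26 were tested, of which 5 rose and 2 fell, beside 4.60% and 4.64% of all tested genes. The median log2 fold change of the 26 was 0.10, and that of all tested genes was 0.0029. Fyb, the adaptor ADAP that links receptors to integrin activation, rose from 83.5 ± 1.16 to 110 ± 1.36 FPKM (log2 fold change 0.39, limma adjusted p = 0.00118). The tyrosine kinase Syk, which acts below integrins and Fc receptors, rose from 28.9 ± 0.261 to 36.6 ± 1.23 FPKM (0.33, limma adjusted p = 0.00348). Fyb and Syk kept their calls under each of 16 alternatives. Src, a kinase of adhesion signalling, rose from 1.77 ± 0.0367 to 2.70 ± 0.0912 FPKM (0.42, limma adjusted p = 0.00719). Lyn, a kinase of the same family, rose from 77.5 ± 0.118 to 86.8 ± 1.45 FPKM (0.16, limma adjusted p = 0.0196). Rap1b, a small GTPase that switches integrins on, rose from 269 ± 9.49 to 315 ± 11.1 FPKM (0.23, limma adjusted p = 0.0205) and is named after its value was seen.

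The adaptors that fell were Parvb and Actn1. Parvb, a parvin, fell from 34.2 ± 0.168 to 29.2 ± 1.42 FPKM (log2 fold change -0.22, limma adjusted p = 0.0220), and Actn1, alpha-actinin, from 40.7 ± 1.42 to 33.9 ± 2.18 FPKM (-0.26, limma adjusted p = 0.0314). The count of adaptors that passed fell from 7 to 3 when control library 2, control library 3, Fbxw11 library 2 or replicate 3 of both groups was left out, and to 4 when control library 1 was. Lyn, Rap1b, Parvb and Actn1 were the calls lost in this way, at adjusted p of 0.0548 to 0.116. Exceptions were Rap1b without control library 1 (0.0429) and Actn1 without replicate 3 of both groups (0.0395), which kept their calls. Actn1 was also lost without Fbxw11 library 1 (0.0971), and Src without replicate 3 of both groups (0.0530). The call of Lyn was also lost on the TPM scale (log2 fold change 0.12, adjusted p = 0.0508), and those of Rap1b (0.0763) and Actn1 (0.0817) with no filter on low values. Talin, Tln1, which binds beta tails directly, stood at 148 ± 5.08 and 146 ± 5.17 FPKM (limma adjusted p = 0.808), and kindlin-3, Fermt3, at 62.9 ± 2.55 and 67.9 ± 2.26 FPKM (0.182), both named after their values were seen.

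Of 38 integrin ligand genes 7 were tested, of which 1 rose and 0 fell, beside 4.60% and 4.64% of all tested genes. The median log2 fold change of the 7 was 0.06. Lamc1, a laminin chain, rose from 49.3 ± 1.22 to 62.0 ± 1.58 FPKM (0.32, limma adjusted p = 0.00361), a call kept under each of 16 alternatives. Spp1, the RGD protein osteopontin, was the most abundant at 10312 ± 215 and 11664 ± 846 FPKM (0.18, limma adjusted p = 0.142). Icam1, the ligand of LFA-1 and complement receptor 3, stood at 12.5 ± 0.358 and 12.03 ± 0.829 FPKM (limma adjusted p = 0.610), named after its value was seen. Of the 31 ligand genes not tested, 9 were listed at 0 in each library.

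Of 14 genes of tail inhibition and recycling 13 were tested, of which 1 fell and 0 rose. Of all tested genes 4.64% fell and 4.60% rose. The count of these 13 that passed was 0 when any single library was left out. Flna, a filamin that competes with talin for beta tails, stood at 95.9 ± 3.07 and 102 ± 2.83 FPKM (limma adjusted p = 0.219). Of 12 lateral partners at the membrane 11 were tested, of which 1 rose and 1 fell, beside 4.60% and 4.64% of all tested genes. Slc3a2, the CD98 heavy chain that binds beta tails, rose from 264 ± 3.49 to 300 ± 6.56 FPKM (0.19, limma adjusted p = 0.0161), and basigin, Bsg, fell from 123 ± 0.705 to 112 ± 0.461 FPKM (-0.13, limma adjusted p = 0.0290). Neither passed when control library 1, control library 2, Fbxw11 library 1 or Fbxw11 library 2 was left out (adjusted p of 0.0501 to 0.127), and Bsg also not without control library 3 (0.0737) or Fbxw11 library 3 (0.0527).

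**Figure D5:**
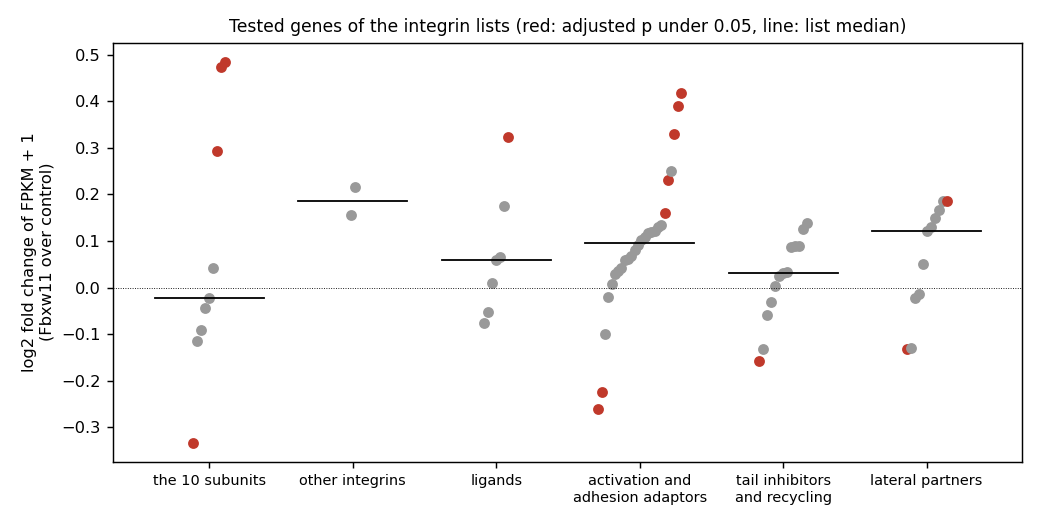
Log2 fold change of FPKM + 1, Fbxw11 over control (vertical axis), of each tested gene of 6 lists (horizontal axis); red points have an adjusted p below 0.05 and the black line is the list's median. The 10 subunits, of which 9 are shown, spread from -0.33 to 0.48, and the adaptors from -0.26 to 0.42 with 22 of 26 above 0. Over all tested genes 5546 of 10898 were above 0.

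The genes most like Itgam and Itgav over the 6 libraries were sought among the 9525 other protein-coding genes tested, by the root mean square difference of log2(FPKM + 1) after each gene's control mean was taken off. For Itgam they were Cd300ld, a CD300 family receptor gene (0.042), the neutrophil chemokine Cxcl3 (0.044) and the prokineticin receptor Prokr1 (0.048). Cd300ld went from 15.01 ± 0.667 to 21.4 ± 0.175 FPKM and Prokr1 from 1.23 ± 0.0566 to 2.01 ± 0.180 FPKM. For Itgav they were the chromatin protein Dek (0.027), the zinc finger gene Zfp948 (0.031) and the spindle checkpoint adaptor Spdl1 (0.033). Dek went from 72.6 ± 1.77 to 56.7 ± 0.649 FPKM and Spdl1 from 15.6 ± 0.328 to 12.6 ± 0.480 FPKM. They were chosen for this likeness, so their own differences are a description.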

How the data were processed

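RNA was sequenced from 3 control and 3 Fbxw11 libraries, grouped by their titles. The deposited values are FPKM per gene, scaled by the authors, for 56748 genes. The submitters' processing notes name mm10, but of 52036 gene identifiers shared with GENCODE M21 on that build only 2.76% had the same start and end, and 0 of the 10 integrin genes did. The sources used here give no aligner, counter, strand setting or filter. Multiplied by gene length, FPKM values below 2000 reads were whole multiples of a single step per library (100% within 0.02 reads), which gave 16191971 to 18951653 reads per library. The library size the authors divided by was 1.014 to 1.018 times the read sum in control and 0.987 to 0.993 times in Fbxw11 libraries.

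The 10898 genes that averaged 1 FPKM or more were tested on log2(FPKM + 1) with limma 3.58.1 in R 4.3.3 (lmFit, then eBayes with trend, two-sided, threshold 0.05, Benjamini-Hochberg adjusted). The fit was tested on simulated data. No library was a copy of another: chi-square over degrees of freedom was 2.34 to 5.43 for pairs of the same group. Other genes in the table that overlap one of the 10 reached at most 0.572 FPKM. Alternative settings changed the pseudocount, filter, scaling, variance model, test, pairing and libraries. Leaving out replicate 3 of both groups was added after seeing the data. The integrin genes and all lists were chosen with earlier results of these data known. All 10 are named. From each list, up to 4 genes per direction past the threshold are named, smallest p first, filled up to 2 with the most abundant. Further names are said to be chosen after their values were seen. A result that this rule names is not reported here.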

Additional observations from a re-analysis of the deposited data

How the results depend on the processing

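The rise of Itgam and the fall of Itgav kept their direction and call under each of 16 alternatives. With no filter on low values 596 of 25297 tested genes changed, beside 1007 of 10898 in the reported fit. Without that filter 1 integrin subunit rose (Itgam) and 1 lateral partner changed. With voom on recovered reads 1559 genes changed, 2 subunits fell (Itgb1 joining Itgav), 2 ligands changed and 2 tail and recycling genes changed. With no mean-variance trend 0 tail and recycling genes and 1 lateral partner changed. Without replicate 3 of both groups 3 adaptors changed. When single libraries were left out, 409 to 801 genes changed in all, 1 to 2 subunits rose, 3 to 7 adaptors, 0 tail and recycling genes and 0 to 2 lateral partners changed. With single libraries left out, the log2 fold change of Itga4 ran from -0.054 to 0.025 and that of Itgb5 from -0.0016 to 0.082; both changed sign without Fbxw11 library 1, and neither passed the test. The cause of these changes was not tested, beyond the fewer libraries or other sets of genes each setting used. Scaling by median ratios called the same 1007 genes as the reported fit, with nearly the same values (Itgam 0.473761 beside 0.473702). It is 1 of the 16 alternatives but close to a repeat of that fit, and so no separate check. On the TPM scale 854 of 1060 calls were shared with the reported calls. With plain read sums 887 of 1072 were shared, and with voom on recovered reads 943 of 1559. No scaling moved the median of all tested genes by more than 0.1 on the log2 scale.

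The replicate numbers were checked for pairing. Deviations of same-numbered libraries from their group means correlated at 0.036, 0.041 and 0.189 for numbers 1 to 3. The value for number 3 was the highest of any pair of a control and an Fbxw11 library. Replicate 3 of each group also lay apart on a principal component, so these libraries shared some variation, whose source was not tested. Numbers 1 and 2 showed no such pairing, as control library 1 correlated more with Fbxw11 library 2 (0.148). With the replicate number as a block 621 genes changed, 1 subunit rose (Itgam), 1 fell (Itgav), and 3 adaptors, 0 tail and recycling genes and 0 lateral partners changed. Depth limits Itgax and Itga6 most, at 68 to 157 and 79 to 100 reads per library.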
